A study of Mus musculus with 53 samples.

Results

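Klf2, Klf4, Klf5 and Klf9, the Krüppel-like factors of mouse embryonic stem cells described here, were chosen by gene name and make up 4 of the 11647 genes of the bulk RNA table and 4 of the 23235 genes of the single-cell table. The binding sites of Tbx3, a T-box transcription factor, within 20 kb of their starts were taken from a list of 3078 sites. All samples came from R1 cells, a mouse embryonic stem cell line kept in serum and LIF without feeders. The bulk set held 1 library each of Tbx3 +/+ (wild type), Tbx3 +/N (heterozygous) and Tbx3 N/N (null) cells, and 1 library each of wild-type cells with a hairpin against luciferase (shLuc) or against Tbx3 (shTbx3). Sites came from N/N cells that carried the biotin ligase BirA and a Flag-Biotin-tagged Tbx3 (bfTbx3), with N/N cells carrying BirA alone as the other chromatin sample, so the mapped protein was an introduced, tagged Tbx3 in cells labelled null. The single-cell set held 45 wild-type SSEA1+DAPI- sorted cells and 1 pool of the same sorted SSEA1+ population. The labels do not say whether the +/N and N/N cells were 1 clone each, and they name no separate cultures.

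Krüppel-like factors bind GC-rich and CACC-type sequences through a zinc finger domain at the end of the protein. Klf2, Klf4 and Klf5 are known to hold mouse stem cells in the naive, self-renewing state beside Pou5f1, Sox2, Nanog and Esrrb, and their functions overlap. Klf4 is a known target of LIF and Stat3 signalling, and Klf2 is known to be held down by the Fgf and Mapk pathway. Klf9 is better known as a factor induced by glucocorticoid and thyroid hormone that often acts as a repressor.

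The Tbx3 sites near these genes lay upstream of Klf2 and Klf9, and the 20 kb windows of Klf4 and Klf5 held none. In the mm9 annotation (GENCODE vM1) Klf2 (ENSMUSG00000055148.7) spans chr8:74842932-74845555 on the plus strand, Klf4 (ENSMUSG00000003032.7) chr4:55540013-55545347 on the minus strand, Klf5 (ENSMUSG00000005148.7) chr14:99697910-99712624 on the plus strand and Klf9 (ENSMUSG00000033863.1) chr19:23215716-23241401 on the plus strand. Of the 22238 annotated coding genes, 2133 (9.59%) had a site with its nearest edge within 20 kb of the start, against 2 of these 4 genes. The sequences shown next are the central 300 bases of the highest-scoring site of Klf2, the site pair of Klf9 within 20 kb, and the highest-scoring site whose nearest coding gene was Klf4. They are given on the plus strand of mm9, 5′ to 3′, in lower case, with capitals for matches to the motifs named after them.
Klf2 upstream site, chr8:74840031-74840330: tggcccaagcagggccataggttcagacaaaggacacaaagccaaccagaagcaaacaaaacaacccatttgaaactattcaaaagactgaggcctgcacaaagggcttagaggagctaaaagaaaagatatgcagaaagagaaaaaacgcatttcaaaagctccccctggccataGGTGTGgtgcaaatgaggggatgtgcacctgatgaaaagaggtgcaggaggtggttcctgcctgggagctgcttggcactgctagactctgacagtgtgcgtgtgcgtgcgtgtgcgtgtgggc
Klf9 near upstream site, chr19:23207820-23208119: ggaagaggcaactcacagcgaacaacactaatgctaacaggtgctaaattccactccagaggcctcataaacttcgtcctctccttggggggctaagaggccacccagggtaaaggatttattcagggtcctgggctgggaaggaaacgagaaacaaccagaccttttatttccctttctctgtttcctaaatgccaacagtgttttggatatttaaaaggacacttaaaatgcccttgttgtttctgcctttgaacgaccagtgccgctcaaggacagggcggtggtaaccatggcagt
Klf9 far upstream site, chr19:23196382-23196681: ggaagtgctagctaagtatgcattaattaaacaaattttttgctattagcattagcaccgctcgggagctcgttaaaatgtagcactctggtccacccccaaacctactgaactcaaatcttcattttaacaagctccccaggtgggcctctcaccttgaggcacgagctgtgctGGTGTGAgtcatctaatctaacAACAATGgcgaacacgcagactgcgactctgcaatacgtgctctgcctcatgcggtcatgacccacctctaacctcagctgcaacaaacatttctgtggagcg
Klf4 distal site, chr4:55477165-55477464: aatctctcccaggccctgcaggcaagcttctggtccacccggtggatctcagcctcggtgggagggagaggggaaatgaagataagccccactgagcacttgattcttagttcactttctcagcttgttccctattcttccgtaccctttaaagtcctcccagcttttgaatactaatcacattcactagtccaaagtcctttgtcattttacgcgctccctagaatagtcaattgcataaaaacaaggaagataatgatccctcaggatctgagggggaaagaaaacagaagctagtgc

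The Klf2 site was 300 bp wide and intergenic, and its edge lay 2602 bp upstream of the Klf2 start. Its score, as deposited by the authors, was 253, rank 165 of the 3078 sites, whose median score was 76.65. A second site, 78634 bp upstream of Klf2, overlapped an exon at the start of the gene Ap1m1 and scored 57.4. Of the sites within 100 kb of Klf2, the one with the higher score thus lay nearer to it.

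Klf9 had the densest set of sites of the 4 genes. Its near upstream site, chr19:23207374-23208565, was 1192 bp wide, scored 675 and ranked 6 of 3078, with its edge 7151 bp from the Klf9 start. The far upstream site, chr19:23196331-23196733, scored 195 (rank 292) at 18983 bp. The other sites within 100 kb lay 45663, 51023, 53209 and 65002 bp upstream and scored 142, 79.9, 74.7 and 123. All 6 were intergenic, with Klf9 as the nearest coding gene. A count of 6 or more sites within 100 kb, a cut-off equal to the count of Klf9 itself, was reached by 18 of the 22238 coding genes (0.0809%).

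Klf4 and Klf5 had no site within 20 kb. The sites nearest to Klf4 lay downstream, with their edges at 54774, 56912 and 67663 bp from its start and scores of 65.4, 51.7 and 188. The highest-scoring of them, chr4:55476945-55477684 (rank 318), fell in an intron of the annotated gene Gm12510, with Klf4 as the nearest coding gene. Klf5 had no site within 100 kb. A missing site says only that none was called in 1 experiment on a tagged protein.

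**Figure D1:**
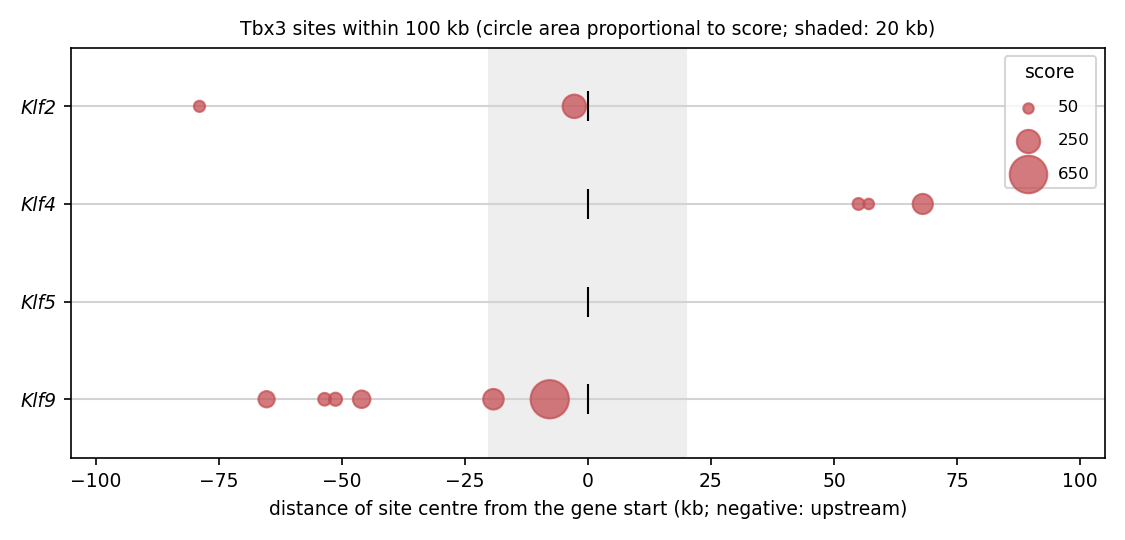
Tbx3 sites within 100 kb of the starts of Klf2, Klf4, Klf5 and Klf9. The horizontal axis gives the distance of each site's centre from the gene start in kb, negative upstream, the circle area is proportional to the deposited score, and grey marks the 20 kb window. Klf9 has 6 sites, all upstream, with the highest score (675) nearest to the gene, the sites of Klf4 lie downstream of it and Klf5 has none.

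Across the whole Klf family, 8 of 17 genes (47.1%) had a site within 20 kb. These were Klf1, Klf2, Klf3, Klf8, Klf9, Klf10, Klf13 and Klf16. The share of coding genes in the bulk table with a site was 14.9% (1648 of 11094), and 7 of the 14 Klf genes of that table had one. Of the related Sp factors 2 of 9 (22.2%) had one. Near the other 6 family members with a site the highest score was 160, near Klf13, which had 3 sites. Klf10, a factor induced by TGF-beta, had 2 sites within 20 kb, 1 of them within 5 kb, with a highest score of 61.8. Neither the family's share nor that of the 4 genes was tested.

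The letters of the sites were searched on both strands for literal motifs. The T-box core GGTGTGA occurred once among the sites of the 4 genes, in the far upstream site of Klf9 (chr19:23196557-23196563, plus strand), and 13.5% of all sites held it (10.0% of the central 300 bases). The shorter core GGTGTG, added after the sequences had been seen and contained both in GGTGTGA and in the Klf core GGGTGTGG, occurred once in the Klf2 site (chr8:74840207-74840212). It was held by 45.6% of all sites and 33.3% of the central 300 bases. In the near upstream site of Klf9 it lay outside the printed window, at chr19:23208301-23208306, and the Klf9 site at 51023 bp held it 2 times, once within the GGGTGTGG match. The Sox motif CATTGTT, in 12.2% of sites, lay shortly after the T-box core of the far upstream Klf9 site, on the minus strand (chr19:23196579-23196585). It was also in the Klf9 site at 53209 bp, and lay outside the printed windows of the near upstream Klf9 site and the Klf4 distal site. The octamer ATTTGCAT (8.45% of sites) was in none of the 11 sites, and GGGTGTGG (10.5%) was in 1 of them, the Klf9 site at 51023 bp. The other motifs searched fell only in sites outside those printed. The Stat motif TTCCNGGAA (2.05% of sites) was in the Klf9 site at 65002 bp, the Esrrb motif TCAAGGTCA (4.78%) in that at 51023 bp, the Tcf motif CTTTGAT (8.38%) in those at 53209 and 65002 bp, and GGGCGTGG, the GC form of the Klf core (7.86%), in those at 51023 and 53209 bp and in the Klf2 site at Ap1m1. The GC content of the 4 printed windows ran from 47% to 50.7%, against a median of 50% over all sites. A match is a description of letters and not of binding.

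In the bulk libraries the 4 genes were lower in both mutant libraries than in wild type, and higher with the Tbx3 hairpin than with the luciferase hairpin, although Tbx3 itself was lower in each of these comparisons. Tbx3 stood at 44.4 FPKM in +/+, 22.5 in +/N, 15.1 in N/N, 13.8 in shLuc and 5.09 in shTbx3. The N/N library thus kept 34.0% of the wild-type Tbx3 value. The table gives 1 value a gene and does not show which exons these reads came from. The wild-type library and the shLuc library, both from cells with an intact Tbx3 gene, differed 44.4 to 13.8 in Tbx3, so each comparison was kept within its own set of libraries. With 1 library a group no difference has a replicate check, and no p-value is given. In bulk RNA, fewer cells of a type and less RNA per cell cannot be told apart.

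Klf2, which ranked highest of the 4 in every library, stood at 303 FPKM in +/+, 231 in +/N, 246 in N/N, 98.7 in shLuc and 141 in shTbx3. Both mutant libraries were below wild type and near each other, and shTbx3 was above shLuc. The differences, as log2 of (FPKM + 1), were -0.39 for +/N and -0.30 for N/N against +/+, and 0.51 for shTbx3 against shLuc. Klf2 fell short of 2-fold in each. Of all genes compared, 20.2% were as low or lower in N/N, and 16.5% as high or higher in shTbx3.

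Klf4, one of the factors used to reprogram fibroblasts to pluripotency, stood at 88.9 FPKM in +/+, 49.5 in +/N, 36.5 in N/N, 45.2 in shLuc and 68.4 in shTbx3. The values stepped down from +/+ through +/N to N/N, and N/N held 41.1% of the wild-type value. The log2 differences from +/+ were -0.83 for +/N and -1.26 for N/N, which passed 2-fold. Of the 11478 genes compared between N/N and +/+, 124 (1.08%) were as low or lower. The direction of Klf4 was known when the genes were chosen, so this rank is a description only. In the hairpin pair the difference was 0.59 upwards, and shTbx3 stood at 151% of shLuc.

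Klf5, which is needed in the blastocyst as well as in stem cells, stood at 100.5 FPKM in +/+, 57.8 in +/N, 54.0 in N/N, 38.7 in shLuc and 80.6 in shTbx3. The mutant libraries lay close together at 57.5% and 53.8% of wild type, and shTbx3 stood at 208% of shLuc. The log2 differences were -0.79 for +/N and -0.88 for N/N against +/+, and 1.04 for shTbx3 against shLuc. The last passed 2-fold by a small margin and lost that call under 4 other settings, with values from 0.84 to 0.97. Of the 11342 genes compared in the hairpin pair, 278 (2.45%) were as high or higher. The direction of Klf5 was also known beforehand, so this rank is a description only.

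Klf9 stood at 51.7 FPKM in +/+, 43.4 in +/N, 38.6 in N/N, 28.8 in shLuc and 35.3 in shTbx3. It followed the same order as Klf4 in the allele set, with smaller steps. The log2 differences were -0.25 and -0.41 against +/+ and 0.28 in the hairpin pair, all short of 2-fold. Of all genes compared, 12.6% were as low or lower in N/N, and 35.0% as high or higher in shTbx3. Klf9, which had the highest-scoring Tbx3 site of the 4, was not past 2-fold. Klf4 in N/N and Klf5 in shTbx3 were, the latter not under all settings, and neither gene had a site within 20 kb. The relation of sites to levels was not tested.

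**Figure D2:**
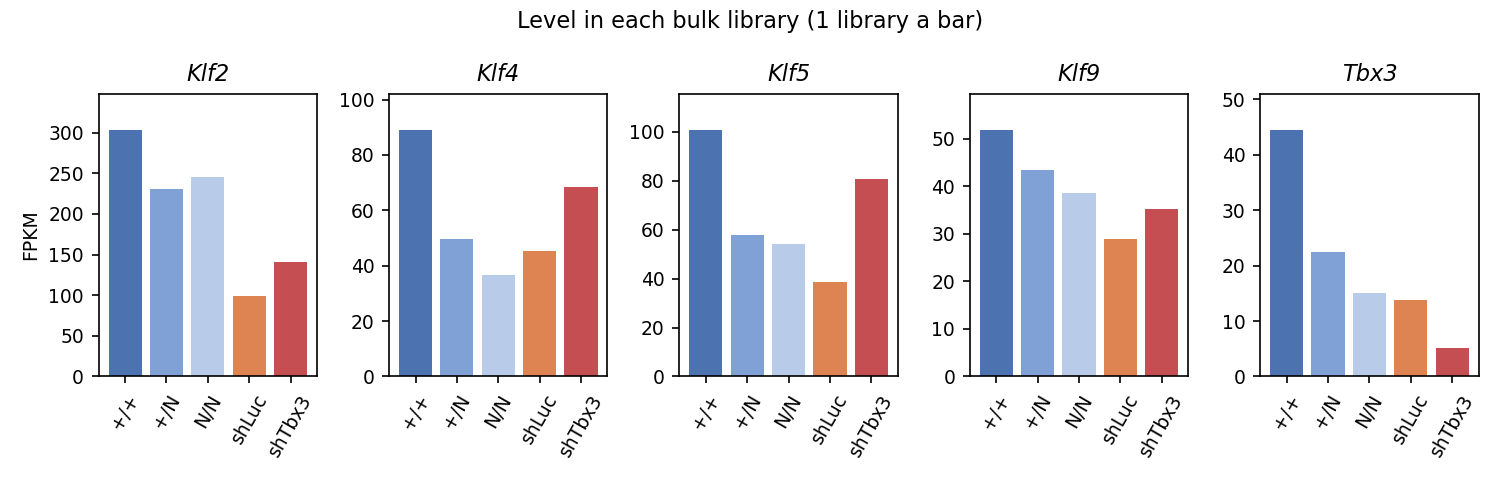
Level of Klf2, Klf4, Klf5, Klf9 and Tbx3 in each bulk library. Each bar is 1 library, the vertical axis is FPKM on a scale of its own for each gene and starts at 0, and there are no error bars because there are no replicates. The Klf genes are below +/+ in +/N and N/N and above shLuc in shTbx3, while Tbx3 is lower in both mutant libraries and in shTbx3.

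These counts were read against all genes. In N/N against +/+, 0 of the 4 genes were 2-fold higher and 1 was 2-fold lower, where 1.37% of 11478 genes were higher and 1.92% lower. In +/N against +/+, none of the 4 passed 2-fold, where 0.698% of genes were higher and 1.21% lower. In N/N against +/N, none passed, where 0.317% of genes were higher and 0.308% lower. In shTbx3 against shLuc, 1 was higher and 0 were lower, where 2.81% of 11342 genes were higher and 0.987% lower. The median log2 difference of the 4 genes was -0.65 in N/N, -0.59 in +/N and 0.55 in shTbx3, beside -0.03, -0.10 and 0.14 over all genes compared. The N/N and +/N comparisons share the +/+ library. The balance of these calls over all genes depended on scaling: in shTbx3 it was 319 higher and 112 lower as deposited and 280 and 274 without small RNA genes, 219 and 171 with the median set to 0, and 202 and 170 with upper quartile scaling. In +/N against +/+ it was 80 and 139 as deposited and 120 and 103, 106 and 118, and 110 and 110 under those scalings. In N/N against +/N it was 36 and 35 as deposited and 13 and 24 without small RNA genes. Under these scalings the hairpin differences of the 4 genes all became smaller, with lowest values of 0.08 for Klf9, 0.31 for Klf2, 0.38 for Klf4 and 0.84 for Klf5, and in +/N against +/+ Klf9 went to -0.08 and Klf2 to -0.22. That Klf4 and Klf5 moved in opposite directions in the allele and hairpin sets was known when the genes were chosen, so it is given as a description.

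Between the mutant libraries themselves the genes separated. From +/N to N/N, Klf4 was lower by -0.43 on the log2 scale, and 171 of 11362 genes (1.51%) were as low or lower. Klf9 differed by -0.16, Klf5 by -0.10 and Klf2 by 0.09, beside a median of 0.07 over all genes. The share of genes as low or lower was 9.05% for Klf9 and 15.5% for Klf5. The sign of the Klf2 value turned negative under 3 other scalings, so it has no settled direction.

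The makeup of the 4-gene total moved as well. FPKM is scaled to transcript length, so levels of different genes can be set side by side within a library. Klf2, Klf4 and Klf5 summed to 492 FPKM in +/+, 338 in +/N, 336 in N/N, 183 in shLuc and 290 in shTbx3. Klf2 made up 55.7% of the sum of all 4 in +/+, 60.5% in +/N, 65.5% in N/N, 46.7% in shLuc and 43.4% in shTbx3. Klf4 made up 16.3%, 12.98%, 9.74%, 21.4% and 21.0% in the same order of libraries. The Klf2 to Klf4 ratio went from 3.41 in +/+ to 6.73 in N/N, and was 2.18 in shLuc and 2.06 in shTbx3. Klf2 was highest in all 5 libraries. Klf5 came next except in shLuc, where Klf4 did, and Klf9 was lowest except in N/N, where it stood at 38.6 FPKM against 36.5 for Klf4. With 1 library each, no spread is known for these neighbouring levels.

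The directions of the other Klf genes of the bulk table were split, and depended on the scaling. Of the 10, 5 were higher and 5 lower in N/N than in +/+, with a median log2 difference of 0.01, and 7 were higher and 3 lower in shTbx3 than in shLuc, with a median of 0.12. Rescaled without small RNA genes, the hairpin split became 4 higher and 6 lower, with a median of -0.08. In +/N against +/+ they were 6 higher and 4 lower as deposited, and 8 and 2 under each of the other 3 scalings. In N/N against +/N they were 5 and 5 as deposited, 4 and 6 with the median set to 0 or upper quartile scaling, and 1 and 9 without small RNA genes. None of the 10 passed 2-fold in any of the 4 comparisons. As deposited, all genes compared split 5285 higher and 6193 lower in N/N against +/+, and 7318 and 4024 in shTbx3 against shLuc. The split was 4012 and 7447 in +/N against +/+, and 7735 and 3627 in N/N against +/N. Klf13 had the signs of the 4 genes, with 15.4 FPKM in +/+, 11.3 in +/N, 8.98 in N/N, 6.50 with shLuc and 9.21 with shTbx3. Klf10 had the opposite signs, at 42.1, 51.3 and 55.9 FPKM in the allele set and 33.4 and 28.5 in the hairpin set. Klf15, a metabolic regulator, went the way of Klf10, at 9.34, 11.7 and 14.5 FPKM and then 9.89 and 8.37. Klf16 was near level in the allele set (26.7, 22.96 and 25.3 FPKM) and went from 16.6 to 28.7 in the hairpin set. Of Klf3, Klf6, Klf8 and Klf11, the log2 difference farthest from 0 in N/N or shTbx3 was 0.48, for Klf6 in shTbx3. The 4 genes carried 75.8% of the family's summed FPKM in +/+, 68.2% in +/N, 67.1% in N/N, 63.9% in shLuc and 70.6% in shTbx3.

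Sp factors bind the same kind of sequence. Sp1 ran 26.4, 32.6 and 34.1 FPKM across +/+, +/N and N/N, then 25.4 with shLuc and 22.0 with shTbx3. Sp2 and Sp3 stayed between 10.1 and 22.0 FPKM in all 5 libraries. Sp5, a Wnt target of the primitive streak, was at 0.897, 2.18, 2.08 and 0.740 FPKM in +/+, +/N, N/N and shLuc, and at 26.0 in shTbx3. It was the 1 member of either family other than Klf4 and Klf5 past 2-fold.

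**Figure D3:**
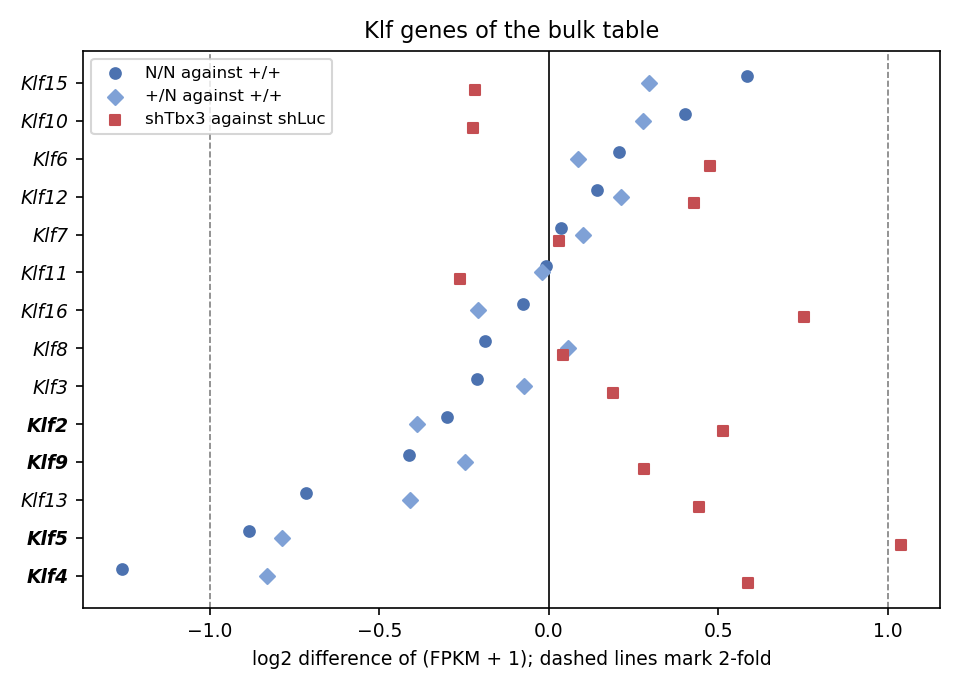
Log2 differences of (FPKM + 1) for the 14 Klf genes of the bulk table, ordered by the N/N value. Circles give N/N against +/+, diamonds +/N against +/+, squares shTbx3 against shLuc, dashed lines mark 2-fold and bold names the 4 genes. Klf4 is lowest in N/N (-1.26) and Klf5 highest in shTbx3 (1.04), while Klf10 and Klf15 have the opposite signs.

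Genes of the pathways that feed these factors were counted from fixed lists. For all the lists below, the shares of all genes past 2-fold stand beside the counts. They were 1.37% higher and 1.92% lower in N/N, 0.698% and 1.21% in +/N, and 2.81% and 0.987% in shTbx3. Of 13 genes of the LIF and Stat3 pathway, 1 was 2-fold lower in N/N than in +/+ and none higher, with a median of 0.05. The one was Myc, a growth factor-responsive oncogene, at 9.35 against 3.99 FPKM. Stat3 itself was at 29.1 and 25.2 FPKM, and its target Socs3 at 74.9 and 63.3. In shTbx3 against shLuc 2 of 13 were higher, with a median of 0.44, which became 0.25 to 0.28 under the other 3 scalings. These were Myc, at 13.99 against 5.21 FPKM, and the kinase Pim1, at 64.8 against 31.7, which fell short of 2-fold under the other scalings (0.80 to 0.85). Myc thus had the signs of Klf4, and Pim1, a Stat3 target, did not: it went from 60.8 FPKM in +/+ to 96.0 in N/N.

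Of 18 genes of the Fgf and Mapk pathway, 1 was 2-fold lower in N/N and none higher, with a median of -0.25. This was Spry4, a feedback inhibitor, with 25.8 FPKM in +/+ against 8.92 in N/N. In the hairpin pair 3 were higher and none lower, with a median of 0.31, which became 0.11 to 0.15 under the other 3 scalings. The phosphatase Dusp4 went from 4.93 FPKM in shLuc to 29.2 in shTbx3, its relative Dusp6 from 11.7 to 26.0, and the receptor Fgfr2 from 1.26 to 3.71. Dusp6 fell short of 2-fold under all 3 other scalings, with values from 0.89 to 0.93, and Fgfr2 under 2 of them, at 0.90 each. In N/N against +/+, Fgfr2 passed 2-fold upwards without small RNA genes, at 1.01. Klf2, which this pathway is known to hold down, stood at 141 FPKM in shTbx3 against 98.7 in shLuc. The part of the pathway in the Klf2 values was not tested.

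Of 16 partner genes of the naive state, 14 were lower and 2 higher in N/N than in +/+, with a median of -0.29. All genes compared there split 6193 lower and 5285 higher, with a median of -0.03. Gbx2 passed 2-fold downwards (12.0 to 5.41 FPKM) and Dppa3 upwards (5.32 to 24.7). In shTbx3, 12 were higher and 4 lower, with a median of 0.29, and Gbx2 (7.91 to 24.4) and Mycn (71.1 to 156) passed 2-fold upwards. Over all genes compared, 7318 were higher and 4024 lower in shTbx3. Under the other 3 scalings the partner list came to 10 higher and 6 lower, with medians from 0.08 to 0.13. Mycn then fell short of 2-fold, at 0.92 to 0.96, while Fbxo15 (-1.03 to -1.09) and the Nodal co-receptor gene Tdgf1 (-1.16 to -1.21) passed it downwards. Gbx2 fell short in N/N with upper quartile scaling, at -0.98. Of the core factors in +/+ and N/N, Pou5f1 was at 660 and 532 FPKM, Nanog at 71.6 and 59.9 and Esrrb at 151 and 121. Their log2 differences of -0.31, -0.25 and -0.32 were near that of Klf2 (-0.30). Others of the list, among them Gbx2 (-1.03), Zfp42 (-0.77) and Nr0b1 (-0.71), were lower by more than Klf2 and Klf9 (-0.41). The median of -0.29 for this list stands beside -0.65 for the 4 Klf genes. The latter is a description only, since the directions of Klf4 and Klf5 were known when the genes were chosen. Of 9 measured glucocorticoid and thyroid hormone genes, Ddit4 was 2-fold higher in N/N (110 to 272 FPKM), the clock gene Per1 was just short of it (8.75 to 18.5, a log2 difference of 0.999) and past it under the other 3 scalings (1.02 to 1.06), and Tsc22d3 2-fold lower in shTbx3 (3.22 to 1.09). The glucocorticoid receptor gene Nr3c1 went from 2.58 FPKM in +/+ to 2.14 in N/N, and Fkbp5, a receptor target, from 58.1 to 47.2. Among the LIF, Fgf, partner, hormone and Sp lists no gene passed 2-fold in +/N against +/+ on the deposited scale. Ddit4 did under all 3 other scalings (1.03 to 1.08), and Sp5 did without small RNA genes (1.17).

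Markers of other cell types moved beside these differences. All 7 stem cell markers stood at 1 FPKM or more in every library, with a summed level between 2256 and 3703 FPKM. Of 7 fibroblast markers 5 were measured, and they summed to 38.0 FPKM in +/+, 72.1 in +/N, 70.5 in N/N, 6.65 in shLuc and 8.64 in shTbx3. Of 7 primitive endoderm markers 5 were measured, and they summed to 34.2, 11.0, 5.90, 12.1 and 15.5 in the same order. The fibroblast markers did not all move together. In N/N against +/+, 4 were higher and Thy1 was lower (11.1 to 10.03 FPKM). Of the 3 at 1 FPKM or more in either hairpin library, 2 were higher in shTbx3, among them Col1a1 (0.205 to 4.38). Thy1 went from 5.81 to 2.85 FPKM there. In shTbx3 the 4 measured primitive streak markers summed to 70.9 FPKM against 2.33 in shLuc, and the 3 measured trophectoderm markers (Krt8, Krt18 and Hand1) to 314 against 24.1. Of endothelial cells, which also use Klf2 and Klf4, only the marker Tek was measured, and it stood between 0.775 and 2.05 FPKM. Small RNA genes took between 19.4% and 22.3% of all FPKM in +/+, +/N and N/N, and between 5.43% and 7.24% with either hairpin. The part of these in the Klf differences was not tested.

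By profile over the 5 libraries, the likeness of genes was measured as the root mean square distance between log2(FPKM + 1) values centred on their means, over 8258 genes. The libraries differ in more than Tbx3, and the distances are a description. Klf4 and Klf5 were 0.25 apart. Klf5 was the 80th nearest gene to Klf4 and Klf4 the 123rd nearest to Klf5, while Klf2 and Klf4 were 0.64 apart. The directions of Klf4 and Klf5 in these libraries were known when the genes were chosen, so their closeness is no separate result. The genes nearest to Klf4 were Zfp423 (0.070), Cmtm7 (0.14) and Dlgap3 (0.14). Zfp423, a zinc finger gene, was at 9.23, 4.41, 2.72, 3.79 and 6.02 FPKM in +/+, +/N, N/N, shLuc and shTbx3. Nearest to Klf5 were Nmb (0.12), Itga5 (0.12) and Hnrnpa0 (0.13), nearest to Klf2 were Ksr1 (0.079), Zfpm1 (0.088) and H1fx (0.093), and nearest to Klf9 were Zic2 (0.039), Sipa1l3 (0.042) and Mmp17 (0.049). None of the 4 genes was among the 3 nearest of another.

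In single wild-type cells each of the 4 genes was at 1 FPKM or more in between 37.8% and 57.8% of the 45 cells, and high in a few. The labels name 1 population of cells, so they are not replicates, and exact (Clopper-Pearson) 95% intervals cover counting error only. The columns of the table fall into a block of 23 and a block of 22 cells, each in ascending cell number. The labels do not say what the blocks are, but the median number of genes above 0 was 4696 in the first and 2738 in the second. Of the 45 cells 44 held at least 3 of the 7 stem cell markers and none held 2 or more markers of another lineage.

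Klf2 ran from 0 to 334 FPKM with a median of 0.304, and 17 of 45 cells (37.8%, 23.8% to 53.5%) were at 1 FPKM or more. It was at 0 in 16 cells and at 100 FPKM or more in 5. Klf4 ran from 0 to 382 FPKM with a median of 2.79, and 26 cells (57.8%, 42.2% to 72.3%) were at 1 or more, 4 of them at 100 or more. Klf5 ran from 0 to 501 FPKM with a median of 0.611, and 19 cells (42.2%, 27.7% to 57.8%) were at 1 or more. Klf9 ran from 0 to 295 FPKM with a median of 0.513, and 20 cells (44.4%, 29.6% to 60.003%) were at 1 or more. The intervals of the 4 genes overlap, so their shares are not ordered.

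The levels in the pool and the means over cells differed by unequal amounts between the genes. In the pool Klf2 was at 229 FPKM, Klf5 at 113, Klf4 at 80.9 and Klf9 at 41.3. The means over cells were 27.4 FPKM for Klf2, 35.7 for Klf4, 29.9 for Klf5 and 24.3 for Klf9. On the (FPKM + 1) scale the pool exceeded the mean of cells 8.11-fold for Klf2, 3.68-fold for Klf5, 2.23-fold for Klf4 and 1.67-fold for Klf9. The median log2 difference, cells minus pool, over 6659 genes at 10 FPKM or more in the pool was -1.10, beside -3.02 for Klf2 and -1.16 for Klf4. Abundant messages were missed in single cells too: Pou5f1, at 1370 FPKM in the pool, reached 1 FPKM in 11 of 45 cells. A cell at 0 is therefore not shown to lack the message.

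Klf10 and Klf13 were at 1 FPKM or more in more of the cells than any of the 4 genes, though the interval of Klf13 overlaps that of Klf4. Klf10 reached it in 42 cells (93.3%, 81.7% to 98.6%) with a median of 166 FPKM, and Klf13 in 37 cells (82.2%, 67.9% to 92.0%) with a median of 76.6. In the pool they stood at 37.1 and 13.04 FPKM, below Klf2, Klf4 and Klf5. Klf3 was at 1 or more in 15 cells, Klf16 in 12, Klf6 in 7, Klf8 in 5 and Klf11 in 4. Klf7, Klf14, Klf15 and Klf17 reached 1 FPKM in none of the 45 cells. A count of 0 allows up to 7.87% of cells at that level (exact upper 95% limit), and does not limit the share of cells that express the gene, since abundant messages were missed too.

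**Figure D4:**
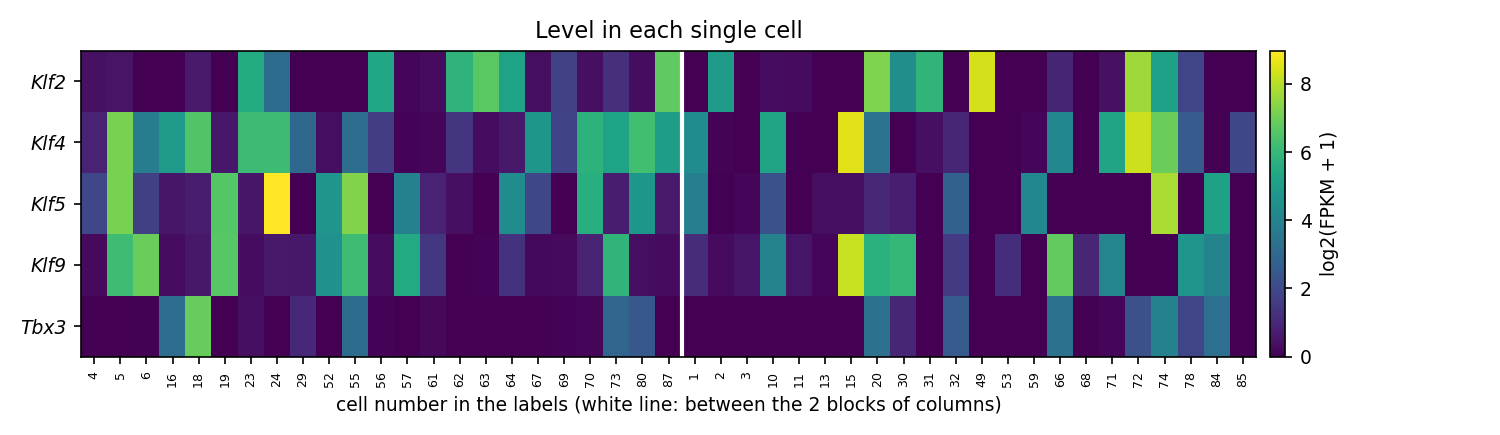
Level of Klf2, Klf4, Klf5, Klf9 and Tbx3 in each of the 45 single cells. Columns are cells by their number in the labels, the white line parts the blocks of 23 and 22 columns, and the colour is log2(FPKM + 1). Each gene is high in some cells and near 0 in others, and the bright cells of Klf2 and Klf9 are mostly different ones. At 1 FPKM or more, 29.4% of Klf2 cells held Klf9, against 44.4% of all cells.

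Most cells held a few of the 4 genes. At 1 FPKM or more, 4 cells held none, 12 held 1, 18 held 2, 10 held 3 and 1 held all 4. All of the cells with none were in the second block. The commonest combinations were Klf2 with Klf4 in 6 cells, Klf5 with Klf9 in 5 and Klf4, Klf5 and Klf9 together in 5. Klf4 was in 16 of 23 cells of the first block and 10 of 22 of the second, Klf5 in 12 and 7, Klf2 in 9 and 8, and Klf9 in 9 and 11.

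Pairs of genes were compared by cells held in common and by Spearman's rank correlation, given as a description, since the cells share a preparation and differ in depth. Klf2 and Klf4 were both present in 11 cells (64.7% of Klf2 cells, 42.3% of Klf4 cells; correlation 0.22). Klf2 and Klf5 shared 4 cells (23.5% and 21.1%; correlation -0.22) and Klf2 and Klf9 shared 5 (29.4% and 25%; correlation -0.34). Klf5 and Klf9 shared 12 (63.2% and 60%; correlation 0.32), Klf4 and Klf5 shared 11 (42.3% and 57.9%; correlation 0.26) and Klf4 and Klf9 shared 11 (42.3% and 55%; correlation 0.10). Over all 45 cells the shares were 37.8% for Klf2, 57.8% for Klf4, 42.2% for Klf5 and 44.4% for Klf9. The joint shares of Klf4 with Klf5 and with Klf9 were near these. The pairs differed in sign, with Klf2 on the negative side of Klf5 and Klf9, but most were no farther from 0 than correlations with other genes. Over 3061 genes found in at least 25% of cells, the middle 95% ran from -0.28 to 0.31 for Klf2. It ran from -0.26 to 0.36 for Klf4, -0.24 to 0.35 for Klf5 and -0.24 to 0.36 for Klf9. Only Klf2 with Klf9 lay outside the ranges of both its genes. No pair of the 4 genes changed sign between the blocks, but some correlations differed in size. For Klf2 and Klf9 the correlation was -0.57 in the first block and -0.14 in the second, and for Klf5 and Klf9 it was 0.61 and 0.12. The rank correlation with relative depth, read from the smallest values of each cell, was -0.02 for Klf2, 0.11 for Klf4, 0.27 for Klf5 and -0.01 for Klf9. With the number of genes above 0 in a cell it was 0.03 for Klf2, 0.24 for Klf4, 0.28 for Klf5 and 0.25 for Klf9.

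Of the 45 cells, 13 reached 1 FPKM of Tbx3. Of these 13, 11 also held Klf4 (84.6%, 54.6% to 98.1%), against 15 of the other 32 (46.9%, 29.1% to 65.3%), and the intervals overlap. Klf2 was in 5 of the 13 and 12 of the 32, Klf5 in 6 and 13, and Klf9 in 7 and 13. The rank correlation with Tbx3 was 0.37 for Klf4 (0.42 in the first block and 0.35 in the second), 0.23 for Klf9, 0.10 for Klf2 and 0.08 for Klf5. For Klf2 and Klf5 its sign turned between the blocks, from -0.27 to 0.37 and from -0.21 to 0.28. Median relative depth was 0.753 in the cells with Tbx3 and 1.03 in those without, and the part of depth was not tested.

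For each of the 4 genes the highest rank correlation over 3061 genes found in at least 25% of cells was modest, and the largest of so many values is high by selection. For Klf5 these genes were Papd7 (0.62), Slc29a1 (0.58) and Tmem208 (0.55), and for Klf4 Gm3258 (0.59), Snx10 (0.55) and Supt4h1 (0.55). For Klf9 they were Psrc1 (0.52), Ncoa3 (0.51) and Srsf10 (0.51), and for Klf2 Fubp1 (0.51), Fignl1 (0.45) and Myadm (0.44). Fubp1 was at 1 FPKM or more in all 17 Klf2 cells, and in 41 of the 45 cells. For Psrc1 and Fubp1 the correlation was 0.69 each in the second block, and 0.26 and 0.23 in the first.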

How the data were processed

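Per the labels, total RNA went into TruSeq libraries that were sequenced single-end for 26 or 100 bp, with no word on which library had which. The deposited bulk values are FPKM, and the submitters' processing notes name TopHat, Cufflinks and Cuffdiff with the mm9 genome. Single cells were captured on a Fluidigm C1 chip, made into Nextera XT libraries and sequenced about 24 together, per the labels. Their FPKM were scaled by the authors on their own, with Cuffnorm named in the processing notes, so levels are not compared between the tables. FPKM carries no read counts, so depth is unknown. The relative depth of cells was taken as the inverse of the lowest 10% of value times transcript length among values under 1 FPKM, scaled to a median of 1. The site list carries a peak score deposited by the authors. The notes name HOMER and Bowtie 1.0 without tying either to the score.

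From these, log2((a + 1)/(b + 1)) was computed with a pseudocount of 1 for genes that reached 1 FPKM on either side, and 2-fold on that scale was counted. No p-value was computed, since each group is 1 library. In cells the level of 1 FPKM marked presence. Sites were measured from their nearest edge to the annotated start, and sequences were read from the NCBIM37 (mm9) genome. The counting script was tested on simulated data. Genes named were the 4 members and Tbx3, other Klf and Sp genes at 5 FPKM or more or past 2-fold, list genes past 2-fold in N/N or shTbx3, and the 3 nearest genes by profile. Stat3, Socs3, Pou5f1, Nanog, Esrrb, Zfp42, Nr0b1, Nr3c1, Fkbp5, Per1, Fbxo15 and Tdgf1 were added for reference after their values had been seen. The members and lists were chosen with earlier results of these data known. Alternatives covered the pseudocount, filter, fold, scaling, detection level, cell depth and site window. Rescaling the gene lists and parting the cells by Tbx3 were chosen after seeing the data. The work used Python 3.11.15, pandas 2.3.3, scipy 1.17.1 and pysam 0.24.0.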

Additional observations from a re-analysis of the deposited data

Results flagged for a closer look

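In each of the 4 genes the difference in the hairpin pair (shTbx3 against shLuc) had the opposite sign to the difference in the allele set (N/N against +/+), while Tbx3 was lower in both. All genes compared split 5285 higher and 6193 lower in N/N, and 7318 higher and 4024 lower in shTbx3. How many of all genes had opposite signs was not counted. The hairpin value minus the allele value, on the log2 scale, was 1.92 for Klf5, 1.85 for Klf4, 0.81 for Klf2 and 0.69 for Klf9. The difference between the sets was not tested, because each side is 1 library against 1. The opposite signs of Klf4 and Klf5 were known when the genes were chosen. Streak and trophectoderm markers were higher in shTbx3, and 4 of the 5 measured fibroblast markers in N/N, as given above, and their part was not tested.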

How the results depend on the processing

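Of 80 log2 differences of the 4 genes recomputed under other pseudocounts and scalings, 73 kept their sign and their side of 2-fold. Klf4 in N/N against +/+ stayed past 2-fold in all of them, from -1.30 to -1.18. Klf5 in shTbx3 against shLuc fell short of 2-fold at 0.97 with a pseudocount of 5, 0.88 with the median difference set to 0, 0.84 without small RNA genes and 0.836 with upper quartile scaling. Klf2 in N/N against +/N, which was not called, became -0.0036, -0.049 and -0.018 under those 3 scalings. At a level of 0.1 FPKM the share of cells became 64.4% for Klf2, 75.6% for Klf4, 66.7% for Klf5 and 82.2% for Klf9. Within 100 kb the site counts became 2 for Klf2, 3 for Klf4 and 6 for Klf9, and within 5 kb Klf9 had 0. Counts of all genes past the fold ranged from 64 to 625 higher and 101 to 743 lower in N/N, from 39 to 280 and 80 to 563 in +/N, from 13 to 111 and 24 to 91 in N/N against +/N, and from 109 to 1443 and 28 to 423 in shTbx3, over pseudocounts, filter, scaling and a fold of 1.5. No paired analysis was possible because each bulk group is 1 library. Without replicates or read counts, the precision of single bulk values is unknown.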
